A study of Homo sapiens with 6 samples.

Results

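A set of 10 genes that carry Cisplatin into cells, carry it out or bind it to glutathione was followed in HK-2 cells given NAT10 siRNA or a control siRNA. They were chosen by gene name, with earlier results of these data known, and all 10 were among the 62754 gene rows of the count table. By role they are the copper importers SLC31A1 (CTR1) and SLC31A2 (CTR2), the organic cation transporter SLC22A2 (OCT2), the volume-regulated anion channel subunits LRRC8A and LRRC8D, the copper pumps ATP7A and ATP7B, the exporters SLC47A1 (MATE1) and ABCC2 (MRP2), and the glutathione transferase GSTP1.

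HK-2 is an immortalised human proximal tubule cell line. Cells under Cisplatin had received either a negative control siRNA (CP+siNC, n = 3) or an siRNA against NAT10 (CP+siNAT10, n = 3). Cisplatin was shared by all 6 libraries and untreated cells are not among them, so the values compare the siRNAs under Cisplatin and not Cisplatin with its absence. The labels give neither dose nor time, and in the methods HK-2 experiments were set at 24 hours of exposure to 20 μM Cisplatin. Total counts were 19321665, 21602988 and 19464027 in the CP+siNC libraries, and 20793709, 21531774 and 25192736 in the CP+siNAT10 libraries. The replicates are labelled as cells 1 to 3 and nothing says that they were separate cultures, so p-values measure only the spread between these samples, which may be technical. Replicates of a group were not copies of each other: the chi-square per gene between them ran from 1.73 to 2.55.

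Cisplatin is a platinum compound that damages DNA, and its dose is limited by injury to the kidney. Proximal tubule cells take it up from the blood side through OCT2 and CTR1, and channels made of LRRC8A with LRRC8D also let it pass. MATE1 and MRP2 move Cisplatin or its glutathione conjugates towards the urine, the copper pumps ATP7A and ATP7B can sequester or export platinum, and glutathione transferases such as GSTP1 bind or conjugate it.

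NAT10, the target of the siRNA, was examined first. It was at 75.8, 71.4 and 73.2 CPM in CP+siNC and at 41.3, 40.5 and 42.5 CPM in CP+siNAT10, where CPM is the gene's count scaled to a common library size after TMM normalization. The groups did not overlap, and the lower values were those of the libraries labelled with NAT10 siRNA. NAT10 fell from 73.5 ± 2.25 to 41.4 ± 0.963 CPM (SD, n = 3 per group; log2 fold change -0.82, SE 0.043, adjusted p = 2.79e-15 by edgeR).

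Of the 10 genes, SLC31A1, LRRC8A, LRRC8D, ATP7B and ABCC2 were higher in CP+siNAT10 at an adjusted p of 0.05, and SLC31A2, ATP7A and GSTP1 did not pass. SLC22A2 and SLC47A1 had too few counts to be tested, since no library reached 10 counts. These 5 calls have to be read against a wide difference between the groups: of the 19874 genes tested 44.1% passed, 21.8% as higher and 22.3% as lower in CP+siNAT10. The groups did not overlap for the same 5 genes. Over all genes tested, 25.7% had every CP+siNAT10 library above every CP+siNC library and 25.7% had every one below. Changes that passed and were over 1 on the log2 scale made up 2.33% of genes tested, and the 5 genes here were all under that size. ABCC2 passed the filter on low counts only through CP+siNAT10, so its being tested depended on its higher group. The number of calls is therefore given as a description. With no filter, ABCC2 was also called higher (log2 fold change 0.81, adjusted p = 0.0392 by edgeR). Its call was lost in 5 of the 13 alternatives that kept it in the test. In bulk RNA, fewer cells of a kind and less RNA per cell cannot be told apart.

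**Figure D1:**
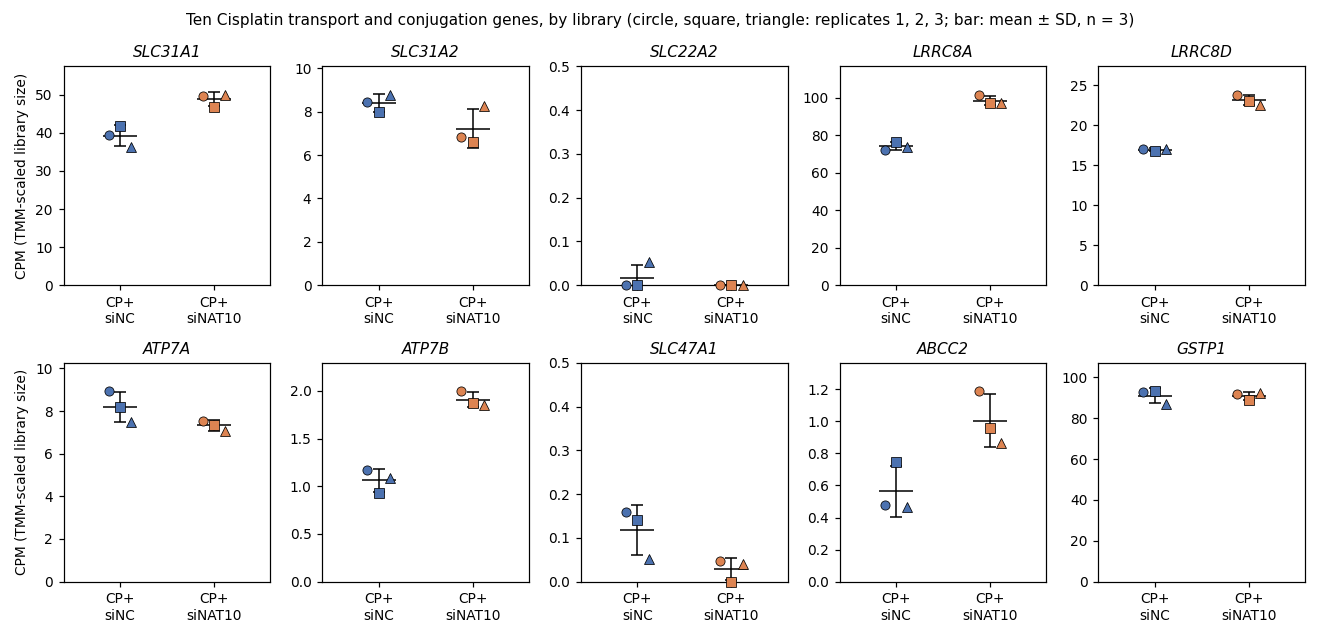
CPM of the 10 genes in each library, with the CP+siNC group in blue and the CP+siNAT10 group in orange. Circles, squares and triangles are replicates 1, 2 and 3, the bars are the mean ± SD (n = 3), and each axis starts at 0. SLC31A1, LRRC8A, LRRC8D, ATP7B and ABCC2 show no overlap between groups, and SLC22A2 and SLC47A1 do not exceed 0.159 CPM.

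The windows around the start sites of 5 of these genes are given, for the 4 genes that were called higher under every alternative tried and for GSTP1, which did not pass. They are taken from RefSeq on GRCh38.p14, which held a 300-base promoter window for 8 of the 10 genes, and are written 5′ to 3′ on the strand of the gene, which is the minus strand for ATP7B and the plus strand for the others. SLC31A1 covers chr9:113221294-113221593, LRRC8A chr9:128881883-128882182, LRRC8D chr1:89820782-89821081, ATP7B chr13:52012083-52012382 and GSTP1 chr11:67583562-67583861. Capitals mark the GC box (GGGCGG), the AP-1 site (TGACTCA) and the cAMP response element (TGACGTCA), each searched on both strands.
SLC31A1: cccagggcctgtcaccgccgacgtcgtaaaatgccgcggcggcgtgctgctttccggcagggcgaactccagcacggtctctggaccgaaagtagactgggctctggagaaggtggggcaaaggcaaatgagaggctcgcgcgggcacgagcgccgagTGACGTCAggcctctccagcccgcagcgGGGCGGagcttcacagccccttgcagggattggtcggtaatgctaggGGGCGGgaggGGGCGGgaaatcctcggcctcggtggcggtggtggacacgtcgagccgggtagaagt
LRRC8A: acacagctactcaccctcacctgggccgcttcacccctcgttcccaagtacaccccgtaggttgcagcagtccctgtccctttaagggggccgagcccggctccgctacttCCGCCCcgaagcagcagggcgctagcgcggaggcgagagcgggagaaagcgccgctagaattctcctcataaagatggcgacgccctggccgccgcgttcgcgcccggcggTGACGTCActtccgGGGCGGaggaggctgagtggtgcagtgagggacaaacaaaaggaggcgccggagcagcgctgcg
LRRC8D: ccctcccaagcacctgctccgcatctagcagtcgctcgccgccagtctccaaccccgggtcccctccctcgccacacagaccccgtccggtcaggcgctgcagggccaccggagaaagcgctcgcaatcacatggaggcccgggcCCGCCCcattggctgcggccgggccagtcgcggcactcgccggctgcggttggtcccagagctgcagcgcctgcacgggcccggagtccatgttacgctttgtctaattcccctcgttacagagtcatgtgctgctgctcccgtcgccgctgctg
ATP7B: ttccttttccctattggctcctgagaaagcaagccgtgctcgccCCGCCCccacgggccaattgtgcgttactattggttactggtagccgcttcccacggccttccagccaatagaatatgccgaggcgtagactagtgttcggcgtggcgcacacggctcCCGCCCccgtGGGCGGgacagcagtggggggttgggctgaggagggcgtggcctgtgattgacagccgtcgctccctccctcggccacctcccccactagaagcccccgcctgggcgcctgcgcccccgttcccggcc
GSTP1: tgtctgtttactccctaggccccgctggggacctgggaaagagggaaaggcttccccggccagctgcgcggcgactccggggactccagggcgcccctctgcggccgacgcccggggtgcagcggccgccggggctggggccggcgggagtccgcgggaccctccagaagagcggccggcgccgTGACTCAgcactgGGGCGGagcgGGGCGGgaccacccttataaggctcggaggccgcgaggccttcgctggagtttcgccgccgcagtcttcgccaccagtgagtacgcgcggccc

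The GC box was found in 44.95% of all 35116 promoter windows of the same length. It occurred 3 times in SLC31A1, 2 times in LRRC8A, 3 times in ATP7B, 2 times in GSTP1 and once each in LRRC8D and SLC22A2, and its letters were not in the windows of ATP7A and ABCC2. SLC31A1 and LRRC8A each held 1 cAMP response element, a motif held by 1.85% of all windows. This motif was chosen after the sequences were seen, and its letters were not in the windows of LRRC8D, ATP7B, ABCC2, SLC22A2, ATP7A and GSTP1. GSTP1 held 1 AP-1 site (4.95% of all windows), which overlaps its 1 match to the antioxidant response core TGACNNNGC (13.35% of all windows). The metal response core TGCACNC (12.1% of all windows) was found 2 times in SLC22A2 and once each in ABCC2 and GSTP1, and its G form TGCGCNC (19.97% of all windows) once in ATP7B. For comparison, the window of the metallothionein MT2A held 6 matches to the first and 2 to the second. Of the 300 bases, 45.0% were G or C in ABCC2, against 67.3% in SLC31A1, 66.7% in LRRC8A, 69.0% in LRRC8D and 74.0% in GSTP1, with a median of 58.7% over all windows. A match is a description of letters. LRRC8A, LRRC8D and ATP7B have further start sites in the table, and the first listed was used.

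Among the uptake genes, SLC31A1 encodes the high-affinity copper importer at the cell surface (ENSG00000136868, chr9:113221544-113264492 on GRCh38). Its level was 39.5, 41.9 and 36.4 CPM in CP+siNC and 49.8, 46.9 and 50.0 CPM in CP+siNAT10. The lowest CP+siNAT10 library lay above the highest CP+siNC library. SLC31A1 rose from 39.2 ± 2.73 to 48.9 ± 1.77 CPM (n = 3 per group), which is 1.25-fold with a 95% interval of 1.16 to 1.34 (log2 fold change 0.32, SE 0.050, adjusted p = 6.58e-06 by edgeR). Of all genes tested, 15.9% had a larger rise. The opposite strand carries CDC26 over 8658 bases of the SLC31A1 span. CDC26 was at 72.17 CPM in CP+siNC and 71.96 CPM in CP+siNAT10 (log2 fold change -0.0051). Whether strand was used in counting is not given in the sources used here.

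SLC31A2, a related copper transporter found largely on endosomes and lysosomes, lies 57403 bases from SLC31A1 on the same strand (ENSG00000136867, chr9:113150976-113164140). It was at 8.44, 7.99 and 8.78 CPM in CP+siNC and at 6.84, 6.59 and 8.25 CPM in CP+siNAT10. Replicate 3 of CP+siNAT10 lay within the CP+siNC range, whereas replicates 1 and 2 lay below it. The group means were 8.40 ± 0.395 and 7.22 ± 0.893 CPM, and the difference did not pass (log2 fold change -0.21, SE 0.10, adjusted p = 0.0978 by edgeR). Without that library it passed, at a log2 fold change of -0.32 and an adjusted p of 0.0184, while over all alternatives the adjusted p ran from 0.0184 to 0.321. FKBP15 lies on the opposite strand over 3135 bases of SLC31A2 and rose by 0.25 on the log2 scale (adjusted p = 4.07e-07 by edgeR). Its part in the SLC31A2 value was not tested.

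Because both copper importers were measured in the same libraries, their ratio does not depend on how libraries are scaled. Per kilobase of the deposited gene length, the log2 ratio of SLC31A1 to SLC31A2 was 1.17, 1.33 and 1.00 in CP+siNC and 1.81, 1.77 and 1.54 in CP+siNAT10. All CP+siNAT10 ratios lay above all CP+siNC ratios. The geometric mean ratio went from 2.24 to 3.27, a log2 difference of 0.54. The ratios themselves depend on the gene lengths used, and the log2 difference does not. The two-sided exact permutation test gave p = 0.10, the smallest that 3 libraries against 3 allow, and 0.125 after Benjamini-Hochberg adjustment over the 5 within-library measures computed.

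SLC22A2, the organic cation transporter through which Cisplatin enters proximal tubule cells in the kidney, was close to absent in these libraries (ENSG00000112499, chr6:160171061-160277638). Its counts were 0, 0 and 1 in CP+siNC and 0 in each CP+siNAT10 library. Over the group, 1 count is 0.0168 CPM with an exact 95% Poisson interval of 0.00043 to 0.0936, and 0 counts in CP+siNAT10 have an interval from 0 to 0.0540 CPM. A floor of 3 counts per group is 0.0504 CPM in CP+siNC and 0.0440 CPM in CP+siNAT10. Both groups are under that floor, so a difference was not detectable at this depth. These intervals and floors cover counting error only.

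LRRC8A is the subunit that every volume-regulated anion channel needs (ENSG00000136802, chr9:128882133-128918036). It was at 72.3, 76.4 and 73.7 CPM in CP+siNC and at 101.5, 97.0 and 97.1 CPM in CP+siNAT10. The groups did not overlap, and the gap between them was wider than the range within either. LRRC8A rose from 74.1 ± 2.05 to 98.5 ± 2.62 CPM (n = 3 per group), which is 1.33-fold with a 95% interval of 1.26 to 1.40 (log2 fold change 0.41, SE 0.038, adjusted p = 6.77e-10 by edgeR). Of all genes tested, 10.8% had a larger rise. KYAT1 lies over 362 of its bases on the opposite strand at 1.84 CPM.

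LRRC8D is the partner subunit with which LRRC8A forms channels that let Cisplatin pass (ENSG00000171492, chr1:89821014-89933160). It was at 17.1, 16.8 and 17.0 CPM in CP+siNC and at 23.8, 23.1 and 22.6 CPM in CP+siNAT10. The CP+siNC libraries lay close together and all CP+siNAT10 libraries lay above them. LRRC8D rose from 17.0 ± 0.156 to 23.2 ± 0.599 CPM (n = 3 per group), which is 1.37-fold with a 95% interval of 1.26 to 1.49 (log2 fold change 0.45, SE 0.060, adjusted p = 3.86e-07 by edgeR). The whole of LRRC8D lies within a second gene row on the same strand, ENSG00000271949, which shares all 112147 bases of its span. That row was at 4.597 CPM in CP+siNC and 6.297 CPM in CP+siNAT10 (log2 fold change 0.45, adjusted p = 0.00229 by edgeR). Reads of the shared exons could be counted for either row or for neither, so the LRRC8D level is uncertain.

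The other 3 subunits of the channel did not move together. LRRC8C was 11.0 ± 1.70 and 13.0 ± 0.497 CPM and was called higher although its groups overlapped (log2 fold change 0.24, adjusted p = 0.0311 by edgeR). LRRC8E fell from 18.0 ± 0.402 to 15.9 ± 0.641 CPM (log2 fold change -0.18, adjusted p = 0.0266 by edgeR). LRRC8B, at 5.26 ± 0.0664 and 4.59 ± 0.492 CPM, did not pass (adjusted p = 0.204 by edgeR). The calls of LRRC8C and LRRC8E were lost with DESeq2 and when single libraries were left out, and that of LRRC8E also with library size scaling and with no filter, at adjusted p-values of up to 0.205 and 0.125.

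As a share of all 5 subunits per kilobase of deposited length, LRRC8A made up 60.7% ± 0.780 in CP+siNC and 65.2% ± 0.630 in CP+siNAT10. LRRC8D made up 15.15, 14.48 and 15.04% in CP+siNC and 16.58, 16.59 and 16.19% in CP+siNAT10, with no overlap between groups. The share of LRRC8D was 14.9% ± 0.359 and 16.5% ± 0.230, a difference of 1.56 percentage points (exact permutation p = 0.10, the smallest possible; 0.125 adjusted over the 5 measures). The share of LRRC8E was 17.7% ± 0.301 in CP+siNC and 12.7% ± 0.717 in CP+siNAT10. The geometric mean ratio of LRRC8A to LRRC8D itself was 4.07 in CP+siNC and 3.96 in CP+siNAT10. Its groups overlapped (log2 difference -0.040, exact permutation p = 0.30). This small difference was -0.011 without CP+siNC replicate 2 and -0.062 without CP+siNC replicate 1.

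**Figure D2:**
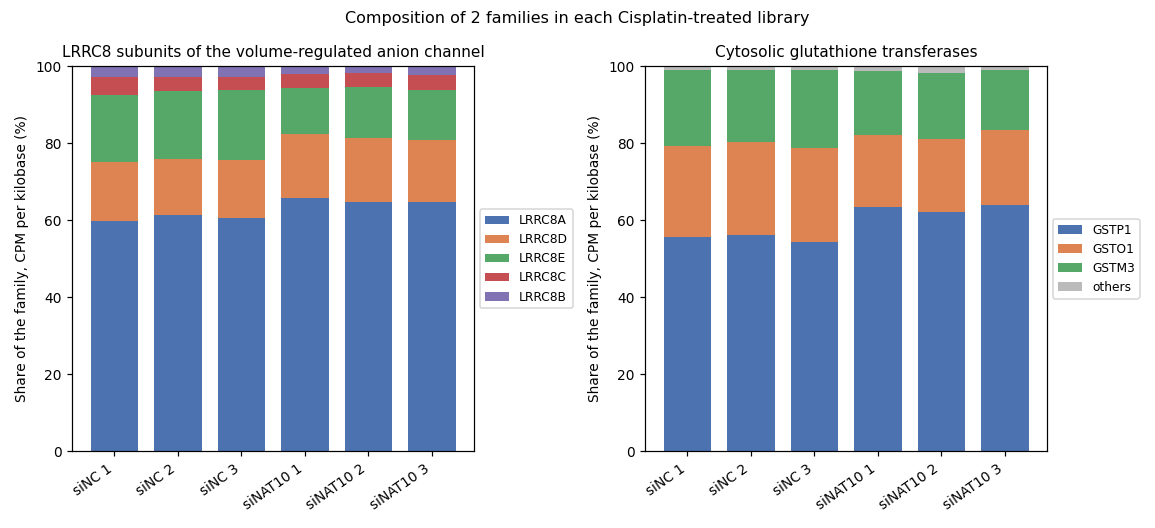
Share of each gene in its family, in percent of the summed CPM per kilobase of deposited gene length, for each of the 6 libraries. The left panel stacks the 5 LRRC8 subunits and the right panel the listed cytosolic glutathione transferases other than GSTT1. LRRC8A and LRRC8D together take more, and LRRC8E less, of the bar in every CP+siNAT10 library than in any CP+siNC library. GSTP1 goes from 55.4% to 63.2% of its family, although its own level did not pass and those of GSTO1 and GSTM3 were called lower.

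Among the efflux genes, ATP7A and ATP7B encode copper pumps of the secretory pathway, which are mutated in Menkes and Wilson disease, respectively. ATP7A (ENSG00000165240, chrX:77910690-78049502) was at 8.92, 8.17 and 7.48 CPM in CP+siNC and at 7.55, 7.37 and 7.06 CPM in CP+siNAT10. Replicate 1 of CP+siNAT10 lay above replicate 3 of CP+siNC, so the groups overlapped. The means were 8.19 ± 0.723 and 7.33 ± 0.248 CPM and the difference did not pass (log2 fold change -0.16, 95% interval -0.36 to 0.035, adjusted p = 0.181 by edgeR). The row of PGK1 on the same strand shares 138764 bases of the ATP7A span and was at 185.0 CPM in CP+siNC and 183.8 CPM in CP+siNAT10. PGAM4, on the opposite strand over 1690 bases, was called lower (log2 fold change -0.56, adjusted p = 7.90e-05 by edgeR). C4orf46P2, on the same strand over 54200 bases at 0.831 CPM, did not pass (log2 fold change 0.62, adjusted p = 0.0782 by edgeR). The part of these rows in the ATP7A value was not tested.

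ATP7B (ENSG00000123191, chr13:51930436-52012125) was lowly expressed, with 22, 20 and 21 counts in CP+siNC and 42, 41 and 47 counts in CP+siNAT10. These counts correspond to 1.17, 0.934 and 1.09 CPM and to 2.00, 1.88 and 1.85 CPM. Every CP+siNAT10 library lay well above the highest CP+siNC library. ATP7B rose from 1.06 ± 0.119 to 1.91 ± 0.0758 CPM (n = 3 per group), which is 1.79-fold with a 95% interval of 1.33 to 2.43 (log2 fold change 0.84, SE 0.21, adjusted p = 0.00174 by edgeR). A larger rise was found in 1.75% of the genes tested. The interval is wide at these low counts, and the rank takes no account of it. FABP5P2 lies on the opposite strand over 408 bases at 0.764 CPM in CP+siNC and 0.671 CPM in CP+siNAT10 and did not pass, and its part in the ATP7B value was not tested.

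The ratio of ATP7A to ATP7B per kilobase of deposited length was lower in CP+siNAT10. On the log2 scale it was 2.36, 2.55 and 2.20 in CP+siNC and 1.34, 1.40 and 1.35 in CP+siNAT10. The CP+siNAT10 values were all lower than those of CP+siNC. ATP7B had 20 to 47 counts per library, so the small spread of the CP+siNAT10 values is no measure of precision. The ratio restates the changes of ATP7A and ATP7B given above and is not a further result. The geometric mean ratio was 5.17 in CP+siNC and 2.57 in CP+siNAT10, and both depend on the gene lengths used. The log2 difference, which does not, was -1.01 (exact permutation p = 0.10, the smallest possible, and 0.125 adjusted over the 5 measures).

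SLC47A1, the exporter of the apical membrane that passes organic cations into the urine, had 3, 3 and 1 counts in CP+siNC and 1, 0 and 1 counts in CP+siNAT10 (ENSG00000142494, chr17:19495385-19578904). Summed, these are 7 counts, or 0.118 CPM with an exact 95% Poisson interval of 0.0473 to 0.242, and 2 counts, or 0.0293 CPM with an interval of 0.00355 to 0.106. The intervals overlap. The ratio of CP+siNAT10 to CP+siNC was 0.249 with a counting interval of 0.0252 to 1.31, so a difference was not detectable at this depth.

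ABCC2 encodes the apical pump for glutathione conjugates and lay just inside the filter on low counts (ENSG00000023839, chr10:99782640-99852044). It had 9, 16 and 9 counts in CP+siNC and 25, 21 and 22 counts in CP+siNAT10, which are 0.478, 0.747 and 0.467 CPM and 1.19, 0.961 and 0.868 CPM. Replicate 2 of CP+siNC came closest to the CP+siNAT10 libraries without reaching them. ABCC2 rose from 0.564 ± 0.159 to 1.01 ± 0.164 CPM (n = 3 per group), which is 1.74-fold with a 95% interval of 1.14 to 2.67 (log2 fold change 0.80, SE 0.30, adjusted p = 0.0317 by edgeR). The call was lost with DESeq2, at a log2 fold change of 0.82 and an adjusted p of 0.139. It was also lost without CP+siNC replicate 1 (0.69, adjusted p = 0.114 by edgeR), without CP+siNC replicate 3 (0.68, adjusted p = 0.115), without CP+siNAT10 replicate 1 (0.67, adjusted p = 0.124) and without CP+siNAT10 replicate 2 (0.83, adjusted p = 0.0607). Over all alternatives the adjusted p ran from 0.0196 to 0.139.

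GSTP1, the transferase of the pi class that binds glutathione to electrophiles, was the most abundant of the 10 genes per length (ENSG00000084207, chr11:67583742-67586653). It was at 92.9, 93.1 and 86.7 CPM in CP+siNC and at 91.8, 88.8 and 92.4 CPM in CP+siNAT10. All CP+siNAT10 libraries lay within the CP+siNC range. The means were 90.9 ± 3.64 and 91.0 ± 1.95 CPM (log2 fold change 0.0011, adjusted p = 0.985 by edgeR). The 95% interval of the log2 fold change ran from -0.078 to 0.080, which corresponds to 0.948-fold to 1.06-fold. The sign of this value near 0 changed with the scaling, with DESeq2 and when single libraries were left out. It was also negative at a minimum of 1 CPM in 3 libraries. The value ran from -0.035 without CP+siNC replicate 3 to 0.039 with library size scaling.

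The share of GSTP1 in its family was higher in every CP+siNAT10 library than in any CP+siNC library, although its own level did not pass. The levels of GSTO1 and GSTM3, the other abundant members, were called lower (log2 fold changes -0.52 and -0.44). Among the listed cytosolic glutathione transferases that had a row under their symbol, which leaves out GSTT1, GSTP1 made up, per kilobase of deposited length, 55.7, 56.2 and 54.3% in CP+siNC and 63.5, 62.1 and 64.0% in CP+siNAT10. The group means were 55.4% ± 0.993 and 63.2% ± 1.02, a difference of 7.80 percentage points (exact permutation p = 0.10, the smallest possible; 0.125 adjusted over the 5 measures). The family held 3 abundant genes. The share of GSTO1 was 24.02% ± 0.488 and 19.02% ± 0.399, and that of GSTM3 was 19.6% ± 0.785 and 16.5% ± 0.795.

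Per kilobase of deposited gene length, the 10 genes spanned a wide range of levels in CP+siNC. GSTP1 stood first at 51.5 ± 2.06 CPM per kilobase, followed by LRRC8A at 14.2 ± 0.394 and SLC31A1 at 7.63 ± 0.531. LRRC8D at 3.49 ± 0.0322 and SLC31A2 at 3.40 ± 0.160 came next and overlapped each other. The pumps were far lower, with ATP7A at 0.291 ± 0.0257, ABCC2 at 0.0720 ± 0.0203 and ATP7B at 0.0565 ± 0.00632, and the values of ABCC2 and ATP7B overlapped. SLC47A1 at 0.0205 ± 0.0100 and SLC22A2 at 0.00289 ± 0.00501 came last.

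In CP+siNAT10 the order per kilobase of deposited length was the same. LRRC8D at 4.78 ± 0.123 no longer overlapped SLC31A2 at 2.92 ± 0.361, nor did ABCC2 at 0.128 ± 0.0210 overlap ATP7B at 0.101 ± 0.00402. The order of ABCC2 and ATP7B rests on the length used. The deposited length of ATP7B is 18854 bases and that of its GENCODE 29 principal transcript 6638 bases. Per kilobase of the principal transcript, an alternative chosen after seeing the data, ATP7B was at 0.160 ± 0.0180 and ABCC2 at 0.0972 ± 0.0273 in CP+siNC. On that scale SLC31A2 at 4.71 ± 0.222 also stood above LRRC8D at 4.29 ± 0.0395 in CP+siNC, and ATP7A at 0.966 ± 0.0852 moved closer to the importers.

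The label of the cells was compared with markers of the proximal tubule. Of 12 markers, 5 passed the filter, led by the transcription factor PAX8 at a mean of 39.3 CPM, with SLC5A2, GGT1, AQP1 and PAX2. The endocytic receptors LRP2 and CUBN, the phosphate transporter SLC34A1, the organic anion transporters SLC22A6 and SLC22A8, the peptidase ANPEP and the regulator HNF4A were under the filter, and SLC22A6 had no counts in any library. Summed over the 12 markers, the level was 75.3, 78.1 and 75.03 CPM in CP+siNC and 85.1, 90.8 and 90.6 CPM in CP+siNAT10. PAX8 and SLC5A2 were called higher and GGT1 lower in CP+siNAT10. PAX8 went from 31.4 ± 1.34 to 47.2 ± 4.48 CPM. The part of these markers in the values of the transporters was not tested.

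The epithelial keratin KRT8 was at a mean of 1452 CPM, and KRT8 and KRT19 did not pass the test, whereas CDH1 was under the filter and did not exceed 0.106 CPM. KRT18 was called lower in CP+siNAT10 (346.0 ± 6.00 and 269.1 ± 7.24 CPM) and EPCAM higher (15.5 ± 1.12 and 19.3 ± 1.65 CPM). Summed over these 5 epithelial markers, the level was 1999, 2016 and 1964 CPM in CP+siNC and 1917, 1897 and 1931 CPM in CP+siNAT10. None of the 5 markers of the loop, distal tubule and collecting duct and none of the 4 endothelial markers passed the filter. Of 5 fibroblast markers COL1A1 alone passed the filter, and of 3 podocyte markers PODXL alone. COL1A1 was 10.48 ± 0.536 and 13.7 ± 1.53 CPM and PODXL 6.24 ± 0.363 and 8.70 ± 1.149 CPM, and both were called higher in CP+siNAT10. Summed over 3 leukocyte markers, the level was 208.5, 197.5 and 215.6 CPM in CP+siNC and 287.6, 265.3 and 267.9 CPM in CP+siNAT10, nearly all of it from CD68, a lysosomal protein. CD68 was 206.5 ± 9.25 and 272.5 ± 12.7 CPM and was called higher. The leukocyte antigen PTPRC lay near the limit of the filter, at 0.425, 0.467 and 0.364 CPM in CP+siNC and 0.475, 1.33 and 0.671 CPM in CP+siNAT10, with replicate 2 of CP+siNAT10 apart from the rest. It was called higher (log2 fold change 0.96, adjusted p = 0.0411 by edgeR), with the limit that genes near the filter can pass through their higher group. CD3E was under the filter. The part of the epithelial, fibroblast, podocyte and leukocyte markers in the values of the transporters was not tested.

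Around the 10 genes, 74 further genes of the same routes were listed in 8 lists, of which 73 had a row under the symbol used and 49 were tested. Of these 49 genes, 7 were higher and 15 lower in CP+siNAT10, with a median log2 fold change of -0.088. The 22 calls are 44.9% of the listed genes tested, close to the 44.1% over all genes tested, where the median was 0.0070. All 22 changes were smaller than 2-fold. Under the alternatives, 17 to 22 of the listed genes were called, and 15 genes kept their call in all of them. The call of ATOX1 was lost without CP+siNAT10 replicate 3, and that of SCO1 when replicate 2 of either group was left out. MT1M lost its call in 4 of 13 alternatives, COX17 and LRRC8C in 5 of 14, LRRC8E in 6 of 14 and STEAP3 in 7 of 14, each of them with DESeq2 and when single libraries were left out. COX17 and LRRC8E also lost it with library size scaling, LRRC8E with no filter, and STEAP3 at a minimum of 1 CPM in 3 libraries.

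The copper handling list held 12 genes, among them copper chaperones, mitochondrial copper proteins and metalloreductases, and 11 were tested. CCS, the copper chaperone of superoxide dismutase, rose from 26.4 ± 0.902 to 31.5 ± 1.56 CPM (log2 fold change 0.26, adjusted p = 0.000252 by edgeR). The metalloreductase STEAP3 was also higher (0.19, adjusted p = 0.0462 by edgeR). The 5 lower genes were COX11, ATOX1, SLC25A3, SCO1 and COX17. COX11, which inserts copper into cytochrome c oxidase, fell from 57.9 ± 2.98 to 47.4 ± 2.10 CPM (-0.29, adjusted p = 8.35e-06 by edgeR). ATOX1, which hands copper to ATP7A and ATP7B, fell from 35.5 ± 1.10 to 31.5 ± 2.26 CPM (-0.17, adjusted p = 0.00939 by edgeR). SCO2, COX19, COMMD1 and STEAP2 did not pass, and STEAP4 was under the filter. The list had a median log2 fold change of -0.12.

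Of 6 other organic cation and anion transporters, SLC22A4 and SLC22A5 were tested and neither passed. SLC22A4 was 2.87 ± 0.205 and 2.33 ± 0.153 CPM (adjusted p = 0.123 by edgeR) and SLC22A5 was 12.9 ± 0.655 and 12.8 ± 0.905 CPM. SLC22A3, SLC22A6, SLC22A8 and SLC47A2 were under the filter.

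Among 10 other ABC exporters 8 were tested, 2 were higher and 1 was lower. ABCC3, the basolateral relative of ABCC2, rose from 22.5 ± 0.557 to 32.9 ± 3.21 CPM (log2 fold change 0.55, adjusted p = 2.29e-08 by edgeR). ABCB1, the multidrug pump P-glycoprotein, rose from 139.3 ± 1.66 to 154.0 ± 2.60 CPM (0.14, adjusted p = 0.000762 by edgeR). ABCC5 fell from 49.6 ± 2.07 to 41.2 ± 1.12 CPM (-0.27, adjusted p = 2.13e-05 by edgeR). ABCC1, at 21.6 ± 1.000 and 21.9 ± 1.45 CPM, did not pass, nor did ABCC4, ABCC6, ABCC10 and ABCC11, and ABCG2 and ABCC12 were under the filter. The list had a median log2 fold change of 0.13.

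Of 20 other glutathione transferases, 19 had a row and 9 were tested. GSTO1 fell from 37.8 ± 0.498 to 26.3 ± 0.501 CPM (log2 fold change -0.52, adjusted p = 6.34e-10 by edgeR) and GSTM3 from 86.4 ± 2.77 to 63.9 ± 2.86 CPM (-0.44, adjusted p = 8.85e-10 by edgeR). The microsomal transferases MGST1 and MGST3 went in opposite directions. MGST3 fell from 12.9 ± 0.937 to 9.12 ± 0.669 CPM (-0.51, adjusted p = 1.42e-05 by edgeR), whereas MGST1 rose from 26.8 ± 1.31 to 34.3 ± 0.211 CPM (0.36, adjusted p = 1.33e-06 by edgeR). MGST2, GSTA4, GSTO2, GSTZ1 and GSTK1 did not pass, and GSTA1, GSTA2, GSTA3, GSTA5, GSTM1, GSTM2, GSTM4, GSTM5, GSTT2 and GSTT2B were under the filter. Near-identical copies in the GSTM and GSTT2 families make their counts uncertain. The list had a median log2 fold change of 0.079.

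All 8 genes that make, recycle or break down glutathione or import its precursor were tested. SLC7A11, the cystine importer, rose from 3.05 ± 0.228 to 5.46 ± 0.201 CPM (log2 fold change 0.84, adjusted p = 3.04e-06 by edgeR), while its partner chain SLC3A2 fell from 97.5 ± 3.42 to 86.3 ± 2.58 CPM (-0.18, adjusted p = 0.000418 by edgeR). Of the enzyme that catalyses the rate-limiting step, the modifier subunit GCLM fell from 28.7 ± 0.427 to 23.9 ± 2.00 CPM (-0.26, adjusted p = 0.000524 by edgeR), and the catalytic subunit GCLC, at 36.6 ± 1.02 and 37.3 ± 1.48 CPM, did not pass. GSS, GSR, CHAC1 and CHAC2 did not pass. The list had a median log2 fold change of -0.10.

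Glutathione conjugates are trimmed at the cell surface before they reach the urine, and 7 genes of that route were listed. GGT1, which starts it, fell from 33.2 ± 0.177 to 27.4 ± 1.92 CPM (log2 fold change -0.28, adjusted p = 9.92e-05 by edgeR), with the caution that near-identical GGT copies could share its reads. KYAT1 and KYAT3 did not pass, and GGT5, DPEP1, ANPEP and NAT8 were under the filter.

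Metallothioneins, small proteins rich in cysteine that bind copper, zinc and platinum, were represented by 8 genes, of which 5 were tested. MT2A fell from 97.4 ± 1.17 to 54.4 ± 3.40 CPM (log2 fold change -0.84, adjusted p = 1.74e-15 by edgeR), with no overlap between groups. MT1M fell from 1.36 ± 0.367 to 0.798 ± 0.123 CPM (-0.76, adjusted p = 0.0204 by edgeR). MT1E, MT1F and MT1X did not pass, and MT1A, MT1G and MT1H were under the filter. Near-identical MT1 copies could share reads, so single MT1 values are uncertain. The list had a median log2 fold change of -0.24.

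**Figure D3:**
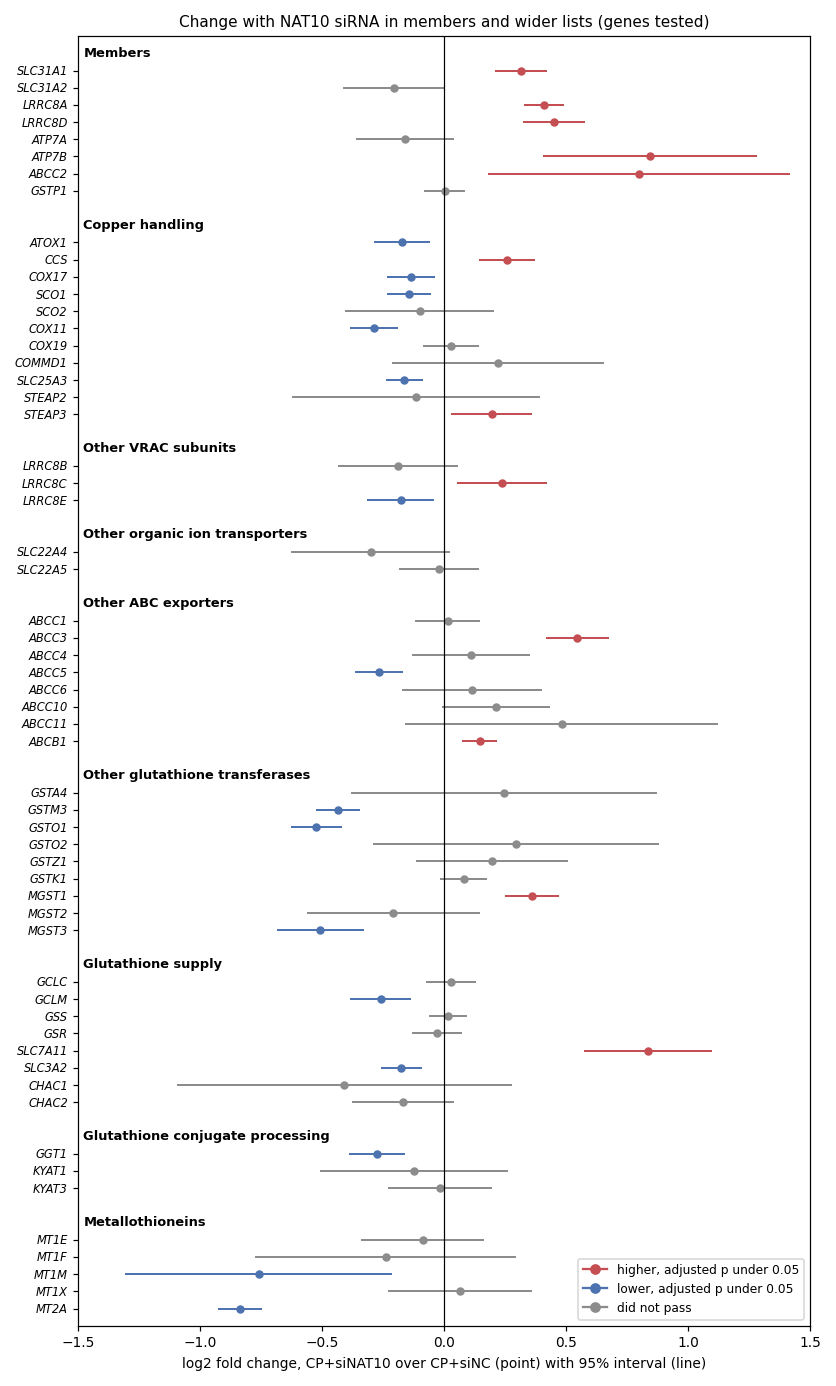
Log2 fold change of CP+siNAT10 over CP+siNC for the 8 tested genes of the 10 and the 49 tested genes of the 8 lists, with points for the estimate and lines for its 95% interval (n = 3 per group). Red marks genes higher and blue genes lower at an adjusted p of 0.05, and grey those that did not pass. ATP7B at 0.84, ABCC2 at 0.80 and SLC7A11 at 0.84 lie farthest to the right, and MT2A at -0.84 and MT1M at -0.76 farthest to the left.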

How the data were processed

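HK-2 RNA was sequenced as stranded mRNA libraries with molecular identifiers. Per the submitters' processing notes, Trimmomatic 0.36, STAR 2.5.3a, featureCounts of Subread 1.5.1 and GRCh38 were used. The values deposited by the authors were raw counts per gene, with gene lengths as another deposited column. In the methods, the identifiers serve to correct for duplicates from PCR and sequencing. Whether identifiers were merged in the deposited counts and strand was used in counting is not given in the sources used here. Groups came from the labels.

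The analysis used edgeR 4.0.16 in R 4.3.3. The filter filterByExpr (minimum count 10, minimum total 15) kept 19874 of 62754 genes and 99.8% of counts in each library. Libraries were scaled by TMM, and groups were compared by the quasi-likelihood test with Benjamini-Hochberg adjustment over all genes tested, with an adjusted p of 0.05 as the limit. Genes without 10 counts in 3 libraries were treated as low. CPM values use the TMM-scaled library size. The standard error is the size of the log2 fold change divided by the root of F. Within-library ratios were compared by an exact permutation test, two-sided, with SciPy 1.17.1.

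All 10 genes and NAT10 were named. Of the lists, called genes with the largest changes were named first, up to 3 per direction, and those removed by filterByExpr as under the filter. The genes and lists were chosen with earlier results of these data known. Of the genes first listed, 3 are not reported here and are in no count or sum of a list. Alternatives were RLE, upper quartile and library size scaling, no filter, at least 1 CPM in 3 libraries, a replicate block, DESeq2 1.42.0, edgeR's exact test, leaving out each library, and principal transcript lengths from GENCODE 29. The programs were tested on simulated data. Plots were drawn with matplotlib 3.10.9.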

Additional observations from a re-analysis of the deposited data

How the results depend on the processing

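SLC31A1 (log2 fold change 0.26 to 0.36), LRRC8A (0.39 to 0.45), LRRC8D (0.43 to 0.49) and ATP7B (0.75 to 0.91) kept their direction and passed the threshold under all 14 alternatives. ATP7A (-0.23 to -0.10) and GSTP1 (-0.035 to 0.039) passed under none of the 14, and GSTP1 kept its sign in 7. ABCC2 kept its direction in 13 alternatives and lost its call in 5, with 0.82 by DESeq2 and 0.67 to 1.06 when a library was left out. It has no value at a minimum of 1 CPM in 3 libraries, which removes it. SLC31A2 ran from -0.32 to -0.14 when a library was left out and passed only without CP+siNAT10 replicate 3. The cause was not tested. With library size alone as the scaling, 5050 genes were higher and 3786 lower, against 4331 and 4440. DESeq2 called 6652 genes. Of the listed genes, 17 to 22 were called, against 22.

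Deviations from the group mean in libraries with the same number had correlations of 0.0081, 0.064 and -0.21 over 12304 genes. Those of libraries with different numbers ran from -0.22 to 0.20. With 3 libraries per group, these values cannot decide whether the numbers pair the libraries. A replicate block called 8526 genes against 8771 and changed no call among the 8 tested genes (0.32 for SLC31A1, 0.84 for ATP7B and 0.81 for ABCC2). With principal transcript lengths, chosen after seeing the data, the difference in share was 1.65 percentage points for LRRC8D and 7.11 for GSTP1. Low counts limit ATP7B and ABCC2, and a difference was not detectable at this depth in SLC22A2, with 1 and 0 counts, or in SLC47A1, with 7 and 2.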
